A study of Homo sapiens with 9 samples.

Results

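The binding of 10 RNA-binding proteins (RBPs), plus the histone mRNA binder SLBP, was examined along 2 nuclear long noncoding RNAs, NEAT1 and MALAT1, in all 54 antibody-barcode eCLIP (ABC) libraries of the series. ABC crosslinks protein to RNA with ultraviolet light in living cells, immunoprecipitates the complexes with DNA-barcoded antibodies and reads the barcode and the RNA fragment together, so that several RBPs are profiled in a single lysate. The members were all merged peaks that overlapped an RNA on its own strand: 1787 on NEAT1 and 1856 on MALAT1, 3643 of the 2478204 merged peaks of the series. The 2 RNAs are among 18292 genes with reads in peaks. Before merging there were 1818 and 1875 CLIPper peaks of 2665030. No merged peak lay on the opposite strand anywhere from the 5′ end of NEAT1 to the 3′ end of MALAT1.

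Both cell lines were grown without a treatment or genetic change named in the labels. K562, a chronic myeloid leukaemia line, gave 3 pools and HEK293, an embryonic kidney line that the labels call HEK293T and the methods HEK293XT, gave 2 pools, each with 10 barcoded antibodies (10plex, 50 libraries). Singleplex libraries, with 1 antibody each, were made for RBFOX2 in HEK293 (2 replicates) and SLBP in K562 (2 replicates). Both HEK293T pools carry a cell line entry of K562, both are titled rep1 and told apart by their original numbers, and the third K562 pool is entered as "K563". The reads settled the cell line: 8 erythroid marker genes of K562 summed to between 228 and 1721 RPM (reads-per-million of all reads in the peaks of a library, median 818) in all 30 libraries titled K562 and to 0 in all 20 titled HEK293T. The HEK293 markers (3 of 4 with reads) were at 0 in all 30 K562 libraries and at 0 to 394 (median 138) in the HEK293 libraries, with 1 library at 0. In singleplex SLBP, 1 of 2 libraries had no read on the K562 markers and the other had 377 RPM, on 3 of the 8. Reads in peaks ran from 10463 to 1603806 a library in K562 (median 156932) and from 17782 to 2343543 in HEK293 (median 336112), against 1777454 and 3622232 in singleplex RBFOX2 and 11917 and 50409 in SLBP. The shallowest 10plex libraries were those of PUM2 and EIF3G, and PUM2 in K562 pool 1 had only 2 peaks on NEAT1. Where the P of a peak was at the limit of the files, the peak entered with the fewest reads that reach it, so that its level is a lower bound. Its fold over a background of pooled barcodes, described further on, would be lower with more reads. This touched MALAT1 most with FAM120A in HEK293 (12 of 47 peaks in pool 1 and 39 of 47 in pool 2), PRPF8 in HEK293 (3 of 30 and 14 of 36) and, in K562 pool 2, RBFOX2 (14 of 64), PRPF8 (8 of 48), FAM120A (7 of 81) and SF3B4 (3 of 52). On NEAT1 it touched RBFOX2 (4 of 58 and 4 of 64 peaks in HEK293 and 4 of 52 in K562 pool 2), FAM120A (3 of 75 and 7 of 61 in HEK293) and PRPF8 (3 of 45 in HEK293 pool 2). IGF2BP2 was touched there too (2 of 63 in HEK293 pool 2). The labels do not say that pools came from separate cultures. Every SD, SE and limma p-value below therefore measures the spread between pools or replicates, which may be technical. The exact permutations instead set RBPs against each other, and the P of a peak compares read counts with a background inside 1 library or pool. Neither measures the spread between pools.

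NEAT1 (ENSG00000245532.11) occupies chr11:65422774-65445540 on the + strand of GRCh38, 22767 nt in GENCODE. It is the architectural RNA of paraspeckles and is made as a short polyadenylated isoform and a long isoform that begin at the same start site. The stretch shared by both, here called the 5′ segment, is 3684 nt, 16.2% of the length. MALAT1 (ENSG00000251562.11), at chr11:65497640-65508073 on the same strand, is 10434 nt long, one of the most abundant nuclear RNAs, and is concentrated in nuclear speckles, where splicing factors gather. Among the proteins, RBFOX2 is a splicing regulator that recognises GCATG, PRPF8 is a core protein of the spliceosome, SF3B4 belongs to the U2 snRNP that recognises branch points, and ZC3H11A takes part in mRNA export. These 4 were taken as nuclear. The RNA helicase DDX3, the translation initiation factor subunit EIF3G, and the mRNA-binding proteins FAM120A, IGF2BP2, LIN28B and PUM2 were taken as cytoplasmic.

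The 5 sequences below carry the site results and are printed with 50 nt on both sides of the peak, or 20 nt for the splice site. They were read from the GRCh38 genome on the + strand. In the first 4, which were chosen by RBFOX2 peaks, capitals mark each GCATG. They are the best NEAT1 peak of singleplex RBFOX2 (chr11:65422944-65423091, from nt 171 of the RNA), the site at the end of the short NEAT1 isoform (chr11:65426292-65426475), the site near the 3′ end of the long isoform (chr11:65445234-65445414) and the RBFOX2 site of MALAT1 (chr11:65503960-65504122). In the fifth, the SF3B4 site of MALAT1 (chr11:65506320-65506409), capitals mark the exon bases of an annotated 3′ splice site.
NEAT1 5′ site: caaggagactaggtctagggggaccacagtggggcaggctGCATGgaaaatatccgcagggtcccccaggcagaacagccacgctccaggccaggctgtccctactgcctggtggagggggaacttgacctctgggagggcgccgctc
NEAT1 short isoform end: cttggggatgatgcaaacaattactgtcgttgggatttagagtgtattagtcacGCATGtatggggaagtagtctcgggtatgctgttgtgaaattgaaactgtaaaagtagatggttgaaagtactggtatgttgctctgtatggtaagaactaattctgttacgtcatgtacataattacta
NEAT1 3′ site: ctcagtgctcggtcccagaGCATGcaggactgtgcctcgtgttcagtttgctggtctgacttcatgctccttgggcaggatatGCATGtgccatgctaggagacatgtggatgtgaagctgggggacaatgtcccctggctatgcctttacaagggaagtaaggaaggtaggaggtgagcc
MALAT1 RBFOX2 site: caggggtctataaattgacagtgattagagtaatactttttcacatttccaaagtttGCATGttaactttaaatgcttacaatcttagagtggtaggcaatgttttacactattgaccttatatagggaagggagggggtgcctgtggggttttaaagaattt
MALAT1 3′ splice site: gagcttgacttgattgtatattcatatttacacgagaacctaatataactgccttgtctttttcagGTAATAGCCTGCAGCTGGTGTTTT

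NEAT1 carried the most reads with RBFOX2 and the fewest with PRPF8, in both cell lines. In K562, RBFOX2 had 8088, 10726 and 8636 RPM on NEAT1 in pools 1 to 3. In HEK293 it had 4937 and 4044. PRPF8 had 615, 863 and 565 in K562 and 835 and 593 in HEK293. In each cell line every RBFOX2 library lay above every library of the other 9 RBPs, whose values ran from 565 to 4775 in K562 (median 2060) and from 593 to 3267 in HEK293 (median 1896). PRPF8, its HEK293 pool 2 value being a lower bound, lay below every library of the other RBPs in HEK293. In K562 it overlapped only PUM2 pool 1, which had 573 from 2 peaks. By rank among the genes of its library NEAT1 came on average 7.33 with RBFOX2 in K562 and 4.5 in HEK293, and 128 and 91 with PRPF8.

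Each RBP was tested against the mean of the other 9 with limma, fitted over the 5608 genes with reads in at least 25 of the 50 libraries. RBFOX2 was higher on NEAT1 by 2.25 ± 0.31 (SE, log2) in K562, adjusted p = 1.69e-06, and by 1.34 ± 0.38 in HEK293, adjusted p = 0.0188. Of all genes, 23.7% passed that test in K562 and 6.15% in HEK293, with medians of -0.42 and -0.59. PRPF8 was lower by 1.93 (log2 difference -1.93 ± 0.31, adjusted p = 1.38e-05) in K562 and by 1.62 (-1.62 ± 0.38, adjusted p = 0.0121) in HEK293, where 48.5% and 3.73% of genes passed and the medians of all genes, 1.20 and 1.00, were on the other side of 0. The lower bound of PRPF8 in HEK293 pool 2 moves its difference there in the direction of the call. The remaining 8 RBPs did not pass in either line, with log2 differences from -0.29 to 0.40 in K562 and from -0.71 to 0.62 in HEK293. The comparisons share their libraries, since each RBP also stands among the 9 of the others. With each library centred on its median gene, RBFOX2 in HEK293 no longer passed (1.82, adjusted p = 0.0835), and ZC3H11A and EIF3G joined the calls in K562. With either HEK293 pool left out, no RBP passed on NEAT1 in HEK293.

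**Figure D1:**
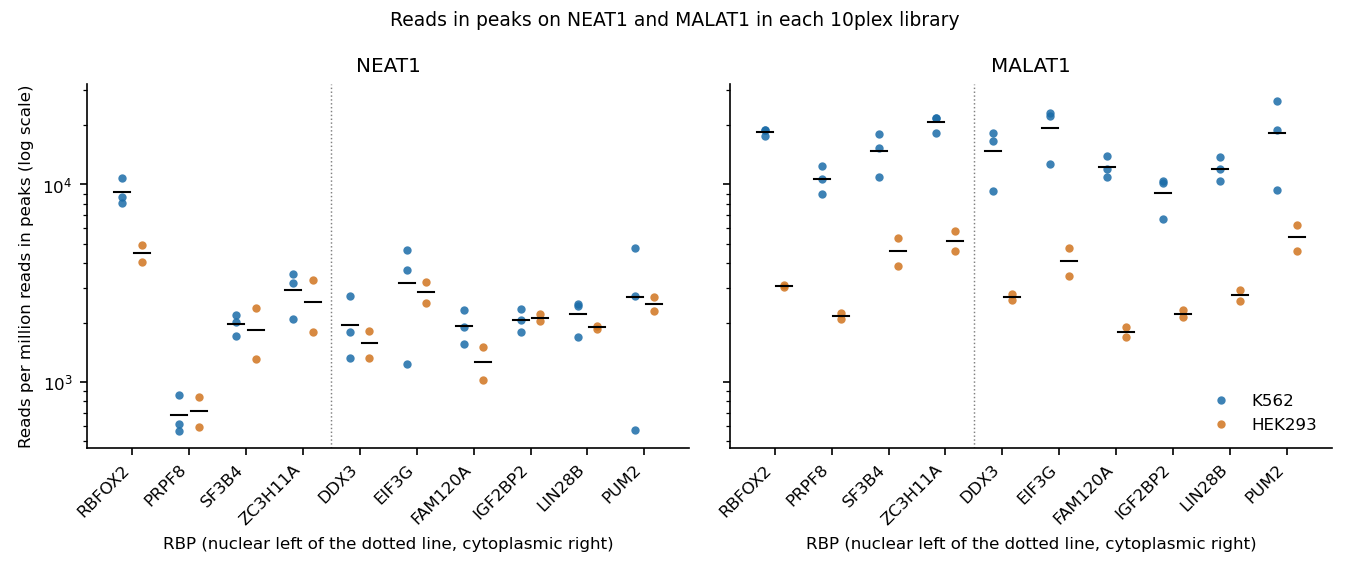
Reads in peaks on NEAT1 (left) and MALAT1 (right) in RPM, on a log scale, with 1 point a 10plex library and a line at the mean of the 3 K562 or 2 HEK293 pools. RBFOX2 stands highest and PRPF8 lowest on NEAT1, while on MALAT1 every K562 library (6679 to 26461) lies above every HEK293 library (1694 to 6242).

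MALAT1 was among the top genes of every library and had peaks with all 10 RBPs. Few of these peaks passed the limits over the pooled barcodes given further on, 7 of 1014 tested in K562 and 2 of 557 in HEK293. Whether the others mark specific binding was not tested. Its rank among genes ran from 2 to 12 in K562 and from 7 to 44 in HEK293. Means in K562 lay between 9093 ± 2094 RPM for IGF2BP2 and 20643 ± 2011 for ZC3H11A (SD, n = 3), and in HEK293 between 1798 ± 147 for FAM120A, a lower bound, and 5426 ± 1154 for PUM2 (SD, n = 2). Per kb of annotated length, MALAT1 was above NEAT1 in all 54 libraries, by 3.83 to 71.6 times in K562 (median 13.5) and by 1.38 to 7.64 times in HEK293 (median 3.49). For RBFOX2 the mean levels per kb were 1762 RPM on MALAT1 and 402 on NEAT1 in K562, and 294 and 197 in HEK293.

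Against the other 9 RBPs, ZC3H11A was higher on MALAT1 in both lines. Its 3 K562 libraries had 21784, 21823 and 18321 RPM, and its HEK293 libraries 5780 and 4625. The log2 difference was 0.60 ± 0.19 in K562 (limma, adjusted p = 0.0212, 15.3% of genes called) and 0.79 ± 0.23 in HEK293 (adjusted p = 0.0199, 10.3% called). IGF2BP2, with 10182, 10418 and 6679 in K562, was lower there by 0.74 (-0.74 ± 0.19, limma adjusted p = 0.00268, 29.5% called). PRPF8 was at -0.47 ± 0.19 in K562 (limma adjusted p = 0.0340), with its pool 2 value a lower bound. PUM2 was higher in HEK293, with 6242 and 4610 and a difference of 0.85 ± 0.23 (limma adjusted p = 0.00729, 14.1% called). FAM120A, with 1902 and 1694 in HEK293, was at -0.91 ± 0.23 there (limma adjusted p = 0.00212, 29.7% called). Both of these FAM120A values are lower bounds, which moves the difference in the direction of the call, so neither the difference nor its p shows FAM120A to be lower. The mean of the other RBPs, against which ZC3H11A and PUM2 were set in HEK293, contains the bounds of FAM120A and PRPF8 and a few such peaks of IGF2BP2 and SF3B4. In K562 pool 2 the mean set against ZC3H11A contains those of RBFOX2, PRPF8, FAM120A and SF3B4. Such bounds can raise the ZC3H11A difference in the direction of its call. RBFOX2 did not pass on MALAT1, at 0.41 ± 0.19 in K562 (adjusted p = 0.0986) and -0.05 ± 0.23 in HEK293 (adjusted p = 0.940). The MALAT1 calls depended on single pools. In K562 1 RBP passed without pool 1 or without pool 2 and 6 passed without pool 3, and in HEK293 none passed without either HEK293 pool and 5 passed without K562 pool 3. With the reads of touching peaks summed, PRPF8 in K562 was at 0.03 and ZC3H11A (both lines) and PUM2 in HEK293 did not pass. With libraries centred on their median gene, ZC3H11A (0.90, limma adjusted p = 0.216) and FAM120A (-0.86, adjusted p = 0.148) did not pass in HEK293, PRPF8 and EIF3G passed in HEK293, and EIF3G was added in K562.

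The nuclear RBPs as a group were not called apart from the cytoplasmic ones on either RNA. On NEAT1 the difference of the means, nuclear minus cytoplasmic, was 0.20 ± 0.19 (SE, log2) in K562 (limma adjusted p = 0.402) and -0.03 ± 0.23 in HEK293 (adjusted p = 0.950). On MALAT1 it was 0.21 ± 0.11 (adjusted p = 0.113) and 0.27 ± 0.14 (adjusted p = 0.145). Among all genes 49.1% passed in K562 and 29.1% in HEK293, and the medians were -0.24 and -0.18. An exact two-sided permutation of the class over the 10 RBPs, 210 choices with a smallest p of 0.00476, gave p = 0.648 and 0.962 for NEAT1 and p = 0.424 and 0.476 for MALAT1 in K562 and HEK293. Within pools the NEAT1 difference was 0.17, 0.06 and 0.36 in K562 and 0.15 and -0.20 in HEK293. The MALAT1 difference was 0.11, 0.09, 0.44, 0.31 and 0.22, above 0 in all 5 pools. Without K562 pool 3, the MALAT1 difference in HEK293 of 0.27 passed (limma adjusted p = 0.0298). How touching peaks are counted changed the MALAT1 call. With the reads of all peaks summed in place of the highest count of each run of touching peaks, it was 0.48 in K562 (limma adjusted p = 0.00528) and 0.57 in HEK293 (adjusted p = 0.0127). The spread inside the classes was wide, since the nuclear class holds both the highest RBP on NEAT1, RBFOX2, and the lowest, PRPF8.

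Other long noncoding RNAs were looked at for comparison. Of 5 nuclear ones, 3 had reads in enough libraries to be tested. KCNQ1OT1 and CHASERR passed in neither line, at 0.15 and 0.14 in K562, and TUG1 was lower with the nuclear RBPs in K562 (-1.06 ± 0.39, limma adjusted p = 0.0206). The median of the 3 was 0.14 in K562 and -0.18 in HEK293. All 6 cytoplasmic ones were tested, with medians of 0.00 and -0.42. NORAD, a cytoplasmic RNA known for its PUM sites, was lower with the nuclear RBPs by 3.22 in K562 (-3.22 ± 0.24, limma adjusted p = 2.99e-14) and by 2.93 in HEK293 (-2.93 ± 0.29, adjusted p = 9.35e-10). In HEK293 the snoRNA host genes GAS5 (-0.39), SNHG1 (-0.44) and SNHG5 (-0.50) were lower too. None of the 9 was called higher with the nuclear RBPs.

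MALAT1 was higher in K562 than in HEK293 with each of the 10 RBPs, and the recovered values of the lines did not overlap for any of them. RBFOX2 had 18818, 18835 and 17510 RPM in K562 against 3116 and 3012 in HEK293. FAM120A had 13934, 10892 and 11917 against 1902 and 1694, the HEK293 values being lower bounds. PUM2 had 18828, 26461 and 9351 against 6242 and 4610, the widest spread between pools. The differences in log2, each with an SE of 0.28, included 2.58 for RBFOX2 (limma adjusted p = 3.45e-10, 15.8% of genes called), whose HEK293 values on MALAT1 hold no lower bound. By limma, DDX3 (2.39, adjusted p = 7.60e-09, 21.2% called), EIF3G (2.20, adjusted p = 7.03e-08, 13% called) and LIN28B (2.12, adjusted p = 1.62e-07, 15.5% called) passed too, as did IGF2BP2 (2.01, adjusted p = 3.74e-07, 14.1% called), ZC3H11A (1.99, adjusted p = 5.82e-07, 19.7% called), SF3B4 (1.67, adjusted p = 1.68e-05, 17.4% called) and PUM2 (1.64, adjusted p = 4.70e-05, 4.46% called). FAM120A (2.76, limma adjusted p = 6.62e-11, 7.95% called) and PRPF8 (2.30, adjusted p = 1.49e-08, 5.21% called) rest on lower bounds in HEK293, which raise the difference, and have no place in the order. IGF2BP2 (2 of 41) and SF3B4 (1 of 30) also had MALAT1 peaks with the fewest reads in HEK293 pool 2, which may raise their differences. The medians of all genes lay between -0.78 for DDX3 and 0.96 for PUM2. With libraries centred on their median gene, PUM2 lost its call (0.68, adjusted p = 1) and the other 9 RBPs stayed past the threshold.

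NEAT1 passed between the lines with none of the 10 RBPs. Its differences ran from -0.31 for PUM2 to 1.02 for RBFOX2 (SE 0.46, limma adjusted p = 0.130 for RBFOX2). The recovered value of RBFOX2 was nevertheless higher in each K562 library than in either HEK293 library, both of which are lower bounds. The levels of both RNAs also moved with the pool. On MALAT1 9 of the 10 RBPs had their lowest K562 value in pool 3 and 8 of 10 their lower HEK293 value in pool 2, and on NEAT1 these were 7 of 10 and 9 of 10. The part of the pool in the results was not tested beyond the fits with a pool left out or as a block. The amount of each RNA was not measured, so more RNA and more binding per RNA cannot be told apart. Each pool is of 1 cell line, so that pool and cell line cannot be told apart either.

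Along NEAT1 the reads were concentrated at the 5′ end. The first 500 nt, 1 of the 46 bins of that size, held 30.5% ± 5.37 of the RBFOX2 reads in K562 (SD, n = 3) and 30.1% ± 3.09 in HEK293 (n = 2). EIF3G had 47.9% ± 6.39 and 41.0% ± 7.30 there, and SF3B4 had 46.4% ± 7.74 in HEK293. The 5′ segment as a whole held 68.9% ± 5.25 of the RBFOX2 reads in K562, 64.1% ± 0.97 in HEK293 and 63.3% ± 0.98 in singleplex RBFOX2. IGF2BP2 was the least concentrated, with 36.6% ± 7.72 and 32.2% ± 2.05. In K562 the leading bin of LIN28B was nt 501 to 1000 (38.3% ± 7.85), which also led for IGF2BP2 (9.47%) and came second for RBFOX2 (18.3%) and SF3B4 (17.3%). The second bin of FAM120A was nt 2001 to 2500 (18.6% ± 4.04, after 23.2% in the first bin) and that of PRPF8 was nt 12001 to 12500 (13.4% ± 3.07, after 28.3%). Reads reached nearly the whole RNA, from nt 55 to nt 22732.

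On MALAT1 the reads were spread over the middle of the annotated span. No peak of any library began before nt 1421 or ended after nt 8750. This leaves 1420 nt at the 5′ end and 1684 nt at the 3′ end of the span without a peak. Whether the mature RNA reaches into these stretches was not measured. For most RBPs the leading bins of 250 nt were nt 2001 to 2250 and nt 7001 to 7250. The latter held 15.8% ± 2.35 of the RBFOX2 reads in K562 and 18.7% ± 5.26 of the SF3B4 reads in HEK293. PRPF8 in K562 stood out at nt 4001 to 4250 with 15.8% ± 0.708. FAM120A in K562 had its 2 leading bins at nt 4251 to 4500 (12.5% ± 0.946) and nt 3751 to 4000 (10.2% ± 0.428). In HEK293, PUM2 and LIN28B were highest at nt 2751 to 3000, with 20.6% ± 3.71 and 15.5% ± 1.01.

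**Figure D2:**
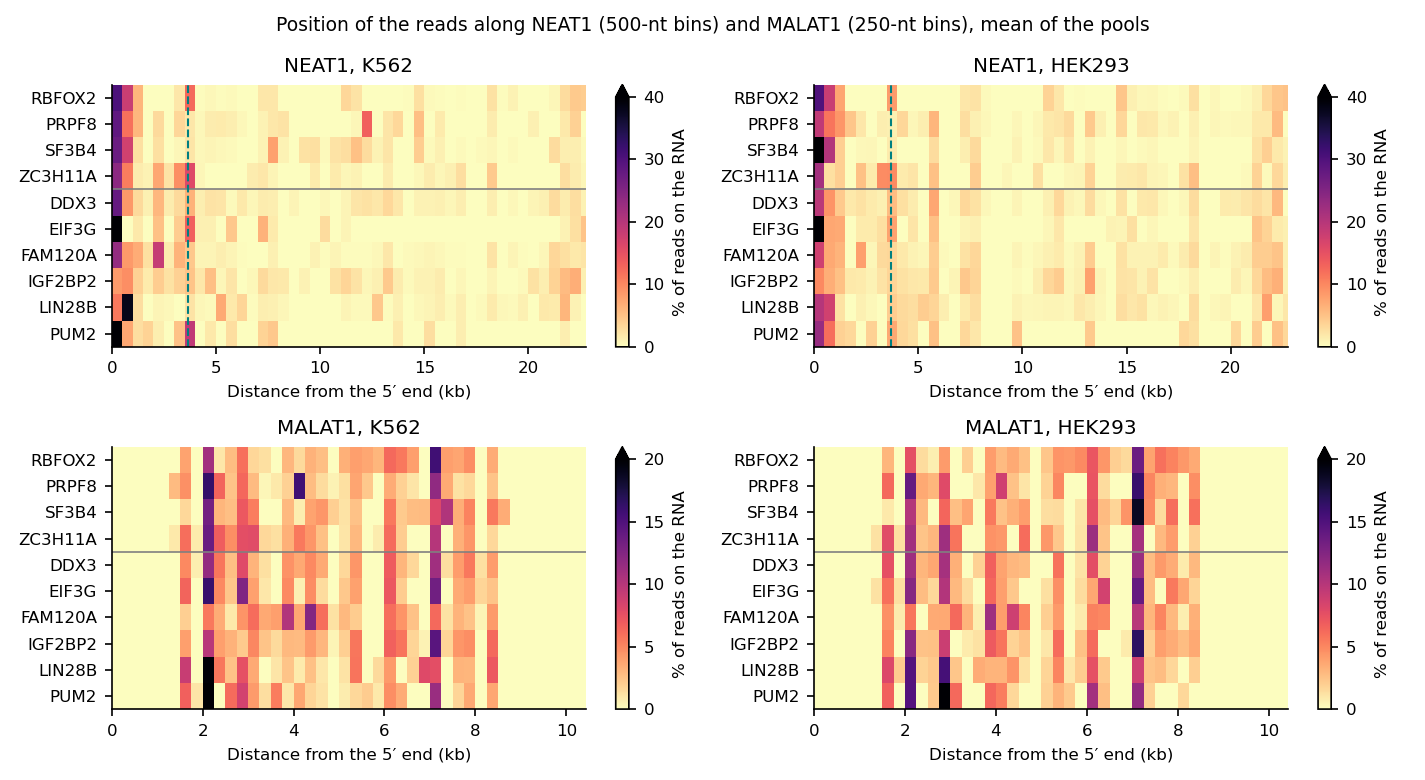
Share of the reads on each RNA by distance from its 5′ end (kb), in bins of 500 nt for NEAT1 and 250 nt for MALAT1, mean of the pools, with nuclear RBPs above the line and cytoplasmic RBPs below it. Dark bins at the left of NEAT1 show the 5′ concentration, the dashed line marks the end of the short isoform, and both ends of the annotated MALAT1 span are empty.

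Position did not separate the classes at this number of RBPs. The 5′ segment of NEAT1 held on average 60.3% of the reads of nuclear and 59.3% of those of cytoplasmic RBPs in K562 (exact permutation over the RBPs, two-sided, p = 0.962, adjusted over 4 tests 0.962). In HEK293 the shares were 60.2% and 48.3% (exact permutation p = 0.143, adjusted 0.286). The 3′ segment of MALAT1 was the last 3478 nt or 33.3% of the annotated span, whose last 1684 nt had no peak. It held 27.5% and 24.0% in K562 (exact permutation p = 0.457, adjusted 0.610) and 32.1% and 24.0% in HEK293 (exact permutation p = 0.133, adjusted 0.286). The NEAT1 difference in K562, 1.04 percentage points, turned to -1.02 without pool 2 and -0.84 without pool 3.

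A peak was called enriched at P below 0.001 and more than 8-fold over a background. Over the complement control (CC), which pools the other 9 barcodes of the lysate, few peaks on these RNAs passed. On NEAT1, 28 of 696 tested peaks (4.02%) passed in K562 and 6 of 586 (1.02%) in HEK293, and on MALAT1 7 of 1014 (0.690%) and 2 of 557 (0.359%). Over all merged peaks of the 10 RBPs, 20.5% passed in K562 and 13.8% in HEK293. By pool, NEAT1 had 6, 6 and 16 enriched peaks in K562 and 1 and 5 in HEK293, and MALAT1 had 1, 2 and 4, and 2 and 0. The CC values of the third K562 pool include peaks in repeats, which those of the other pools leave out. A fold over the CC was given only for that pool, and in the others it was solved from a chi-squared statistic. Without such peaks the mean on NEAT1 in K562 was 7.67 a pool in place of 9.33. Over the external background nearly all peaks passed. On NEAT1 these were 809 of 859 (94.2%) in K562 and 739 of 796 (92.8%) in HEK293. On MALAT1 they were all 1108 and all 622, and of all merged peaks 49.9% and 34.7%. The files do not name this background, and the methods list RNA sequencing and size-matched input. It differed between RBPs. In HEK293 pool 1, RBFOX2 and FAM120A had similar shares of the pool (0.260 and 0.250) but log2 ratios of background to library reads of 0.568 and 4.75. In K562 pool 1, EIF3G had a smaller share than DDX3 (0.0186 against 0.0506) and also a smaller ratio (3.66 against 4.25). The counts therefore mix backgrounds.

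Most of the peaks past the CC limits on NEAT1 were those of RBFOX2. They numbered 20 of 119 tested in K562 (16.8%, against 11.2% of all RBFOX2 peaks) and 4 of 85 in HEK293 (against 5.83%). By K562 pool the NEAT1 shares were 10.3%, 15.8% and 23.8%, so that the excess leans on the third pool. SF3B4 had 4 of 81 in K562 (against 30.9% of all its peaks). LIN28B had 2 of 61 (37.6%), DDX3 1 of 60 (21.3%) and EIF3G 1 of 32 (32.3%). PUM2 had 2 of 19 in HEK293 (22.8%). Of the enriched RBFOX2 peaks, 2 of the 20 in K562 and 1 of the 4 in HEK293 entered with the fewest reads. For every one of these RBPs but RBFOX2 in K562, the share on NEAT1 was below that of the RBP over all its peaks. On MALAT1, SF3B4 had 4 of 107 in K562, RBFOX2 2 of 155 in K562 and 2 of 97 in HEK293, and PRPF8 1 of 114 in K562 (against 22.5%). The remaining RBPs had none on MALAT1.

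**Figure D3:**
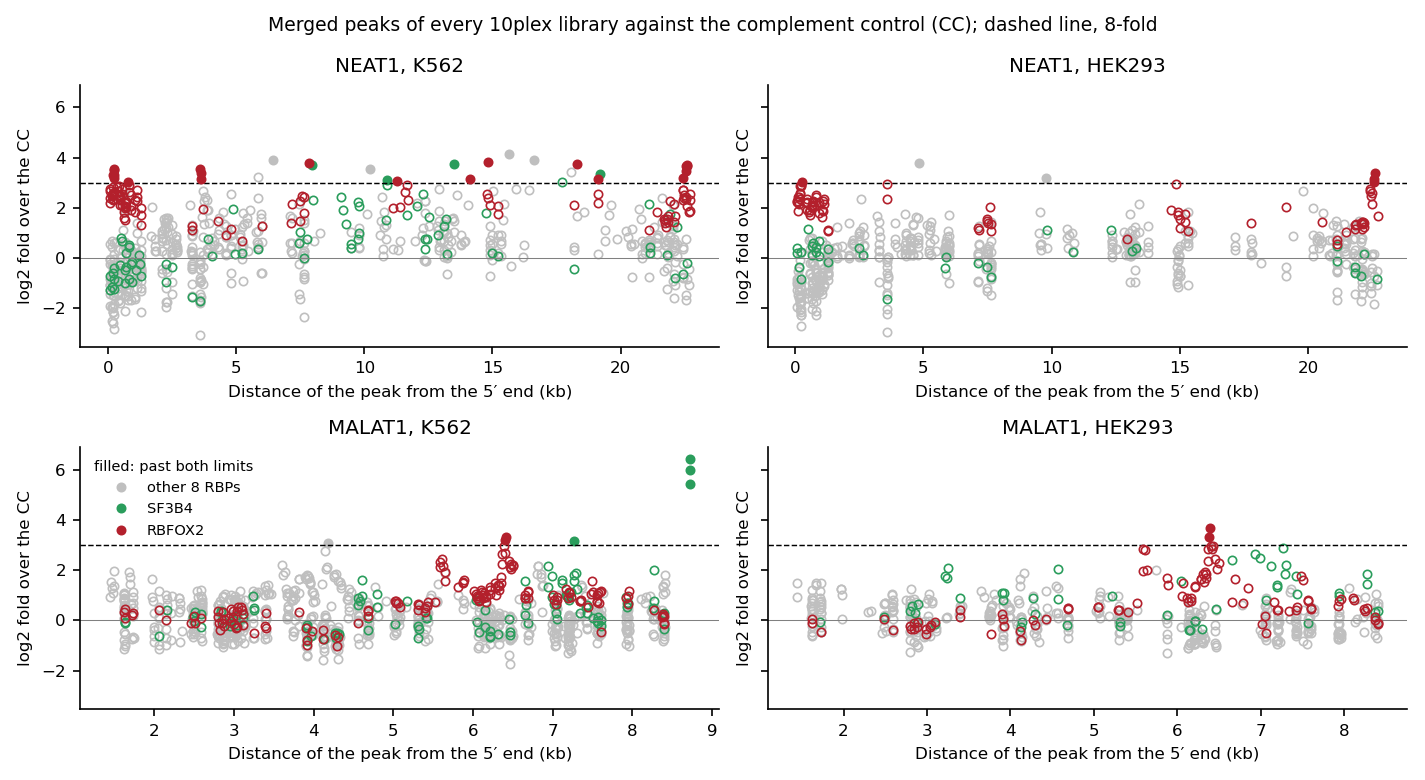
Log2 fold over the CC of each merged peak with a CC value in every 10plex library, by its distance from the 5′ end (kb), with RBFOX2 in red, SF3B4 in green, the other 8 RBPs in grey and peaks past both limits filled. The dashed line is 8-fold, and the 3 SF3B4 points at the right of MALAT1 in K562 (43.0 to 86.4-fold) stand above all other peaks.

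In K562 the RBFOX2 peaks of the 3 pools formed 57 sites on NEAT1, of which 11 were enriched in at least 1 pool, 3 of them in the 5′ segment and 8 beyond it. Most of the 11 passed in pool 3 alone, the pool whose CC values include peaks in repeats. Sites with a peak past the limits in each of the 3 pools were at both ends of the 5′ segment. The first, nt 117 to 267, contains the 5′ site printed above. It had 361, 502 and 281 RBFOX2 reads against 139, 268 and 175 reads in the CC, which are 11.7, 9.04 and 9.83-fold. In pool 2 a higher peak over the printed site (509 reads against 344) was at 7.14-fold and did not pass. The pool 2 call thus depends on which overlapping peak is taken. The other site, nt 3569 to 3652, ends 32 nt before the end of the short isoform. It had 278, 891 and 214 reads against 140, 413 and 112, or 8.97, 10.4 and 11.7-fold. At both sites the pool 2 peak (502 and 891 reads) entered with the fewest reads, so its reads are a lower bound and its fold would be lower with more. A site at nt 22521 to 22598, near the end of the long isoform, passed in pools 2 and 3 (12.6-fold in pool 3) and not in pool 1 (5.44-fold).

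In HEK293 an overlapping 3′ site passed the limits in both pools, at nt 22511 to 22591, with 176 and 225 reads against 57 and 79 (8.77 and 8.15-fold). It ends 176 nt before the end of the gene. The HEK293 site at nt 199 to 266 lay at the limit, with 7.39 and 8.09-fold. Both values rest on the fewest reads. In pool 2 the highest peak over the printed 5′ site, also with the fewest reads, had 1213 against 460 (7.55-fold) and did not pass.

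Read levels at these places were taken as the highest peak over each printed site. The sites were chosen by RBFOX2 enrichment over the other barcodes or as the best singleplex RBFOX2 peak. That RBFOX2 stood first there follows from this choice and is no separate result. At the 5′ site RBFOX2 had 1077, 1014 and 1042 RPM in K562 and 497 and 624 in HEK293, of which K562 pool 2 and both HEK293 values are lower bounds. EIF3G came next on average, with 325, 760 and 268 in K562 and 231 and 602 in HEK293. At the end of the short isoform RBFOX2 had 830, at least 1776, and 794 in K562, above every other library there. In HEK293 it had 549 and 225, the second of which overlapped other RBPs. At the 3′ site RBFOX2 had 140, 281 and 260 in K562 and 139 and 116 in HEK293, where most other RBPs had no peak. EIF3G reached 163 in 1 K562 library and 77 in 1 HEK293 library.

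On MALAT1, RBFOX2 was enriched at 1 place. In HEK293 the site at nt 6371 to 6433 had 216 and 517 reads against 61 and 190 in the CC (10.1 and 7.79-fold) and passed in 1 of 2 pools. That call too depends on the overlapping peak taken. The highest pool 1 peak over the printed site had 239 reads against 94 (7.23-fold) and did not pass. In K562 the overlapping peaks spanned nt 6096 to 6528 and passed in 2 of 3 pools (2.30, 10.0 and 9.06-fold), the pool 2 fold resting on the fewest reads. The level over the printed site was 1197, at least 1630, and 1476 RPM in K562 and 188 and 266 in HEK293. Of the other RBPs, EIF3G (895) and PUM2 (995) had a peak there in 1 K562 library each and FAM120A in 2 (498 and 251). No HEK293 library of another RBP had a peak there.

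The strongest site of either RNA over the CC was that of SF3B4 at the 3′ edge of the MALAT1 peaks. In K562, nt 8701 to 8750 held 103, 159 and 61 SF3B4 reads against 12, 23 and 23 in the CC, which are 86.4, 64.1 and 43.0-fold, and passed in 3 of 3 pools. Its level was 559, 464 and 469 RPM. The peak covers 46 nt before and 4 nt of an exon that starts at nt 8747 and whose 3′ splice site is used by 12 of the 66 annotated MALAT1 transcripts. The printed sequence shows the run of pyrimidines that ends in the splice site. For scale, 12.8% of all 10385 windows of 50 nt along MALAT1 hold an annotated 3′ splice site. No other 10plex library had a peak over this site, and the HEK293 SF3B4 libraries, with 5333 and 3885 RPM on MALAT1 in all, had none.

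Other enriched peaks on MALAT1 passed in 1 pool each. SF3B4 at nt 7090 to 7324 had 1.76, 2.16 and 8.99-fold. PRPF8 at nt 4075 to 4220 had 748, at least 1022, and 864 reads and 4.40, 4.15 and 8.47-fold. The pool 2 fold of both rests on the fewest reads. It lies 510 nt past the nearest annotated 5′ splice site. The enriched NEAT1 peaks of SF3B4, DDX3, EIF3G, LIN28B and PUM2 also passed in 1 pool each and held 3 to 25 reads, which is too few to set their fold with precision.

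**Figure D4:**
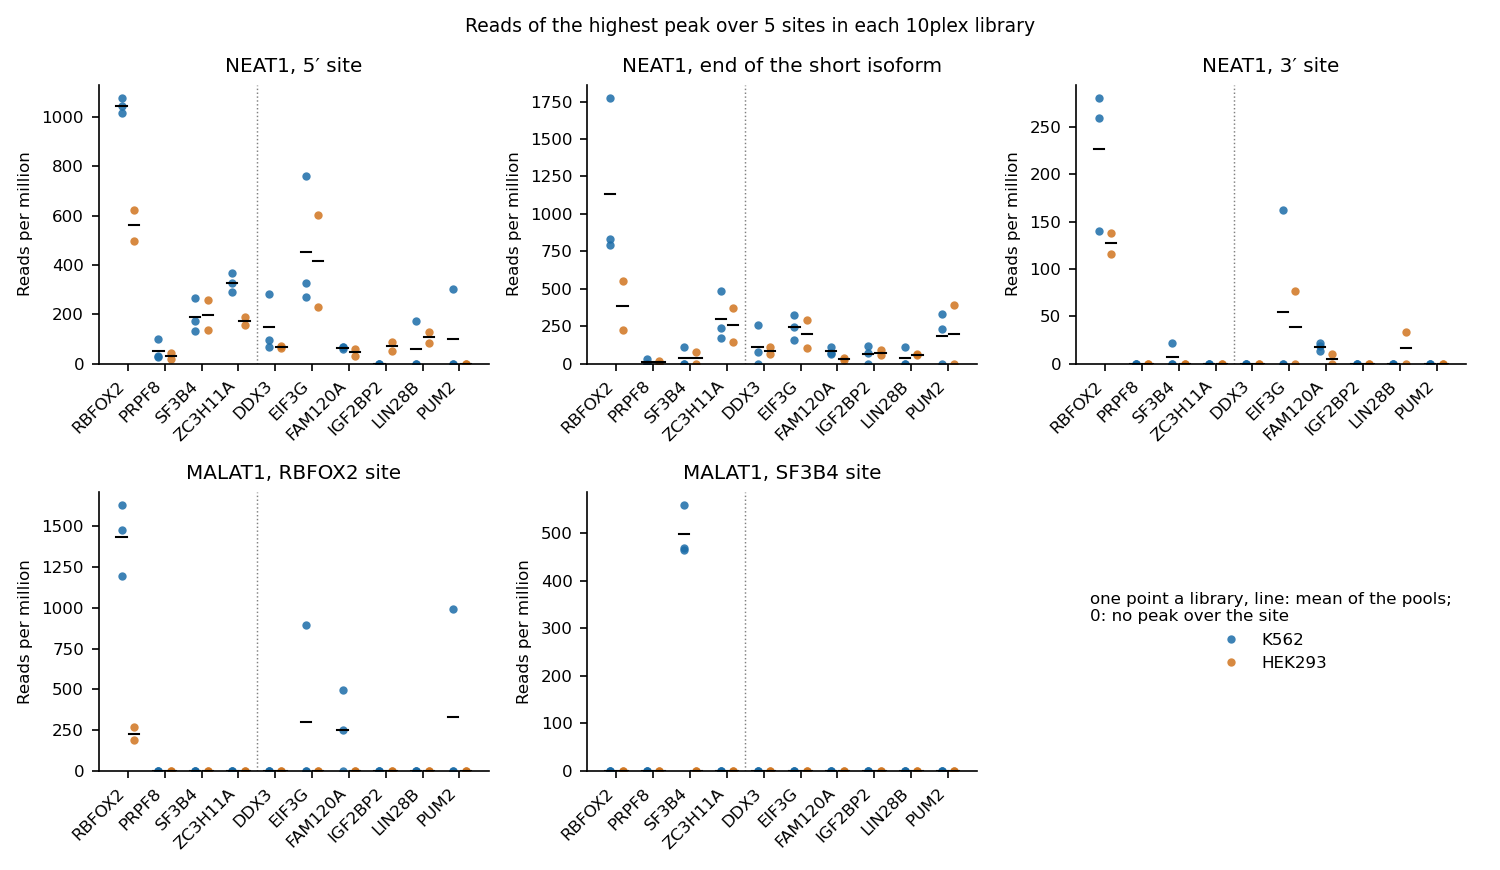
RPM of the highest peak over the 5 printed sites, 1 point a 10plex library, with a line at the mean of the pools and 0 where no peak lay over the site. RBFOX2 has the highest mean at the first 4 sites in K562, and SF3B4 in K562 is the only RBP with a peak at the MALAT1 splice site. The sites were chosen by the peaks of these RBPs, so their lead follows from the choice.

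The RBFOX2 motif GCATG occurs 27 times in NEAT1 and 9 times in MALAT1 on the sense strand. It was sought on that strand in each merged peak with 50 nt on both sides. Of the RBFOX2 peaks on NEAT1, 37.2% ± 2.99 in K562 (SD, n = 3) and 30.5% ± 5.60 in HEK293 (n = 2) held it. The other 9 RBPs averaged 21.3% and 17.8%. On MALAT1 the shares were 22.1% ± 3.08 and 25.9% ± 0.554, against 12.9% and 15.0%. All windows of 135 nt along the RNA held the motif in 15.2% on NEAT1 and 11.4% on MALAT1. RBFOX2 labels were permuted among the 10 libraries of each pool (exact, one-sided, 5 tests adjusted together). This gave p = 0.021 (adjusted 0.0263) for NEAT1 in K562 and p = 0.01 (adjusted 0.0167) in HEK293, and p = 0.001 (adjusted 0.005) and p = 0.01 (adjusted 0.0167) for MALAT1, where 0.001 in K562 and 0.01 in HEK293 are the smallest the exact permutation can give. In NEAT1, 2 of the 27 other K562 libraries, 1 of EIF3G and 1 of PUM2, were at or above the lowest RBFOX2 library (both at 50%). Within the peak alone, without the 50 nt, none of the 4 passed. Without K562 pool 2 or 3 the NEAT1 call in K562 was lost (exact permutation, adjusted p = 0.0875 and 0.075), and with 1 HEK293 pool neither RNA passed there. Overlapping peaks can share a motif, so the peaks of a library are not independent.

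The motif was nearly always present where RBFOX2 was enriched over the CC. On NEAT1, 19 of 20 enriched peaks in K562 and 4 of 4 in HEK293 held it, against 26 of 99 (26.3%) and 23 of 81 (28.4%) of the tested peaks that were not enriched. On MALAT1, 2 of 2 in each line did, against 35 of 153 (22.9%) and 25 of 95 (26.3%). Of the 11 enriched NEAT1 sites in K562, 10 held the motif, the exception being nt 19096 to 19146. Peaks of one site in several pools are counted in each pool. The PUM2 motif TGTANATA occurs 6 times in NEAT1 and not in MALAT1. No NEAT1 peak of PUM2 in HEK293 held it (0% in both pools, exact permutation p = 1), against 0.242% for the other 9 RBPs and 3.01% of windows of 140 nt. In K562 none of the 2 PUM2 peaks of pool 1, 2 of 14 in pool 2 (14.3%) and 1 of 9 in pool 3 (11.1%) held it, and no test was made there.

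**Figure D5:**
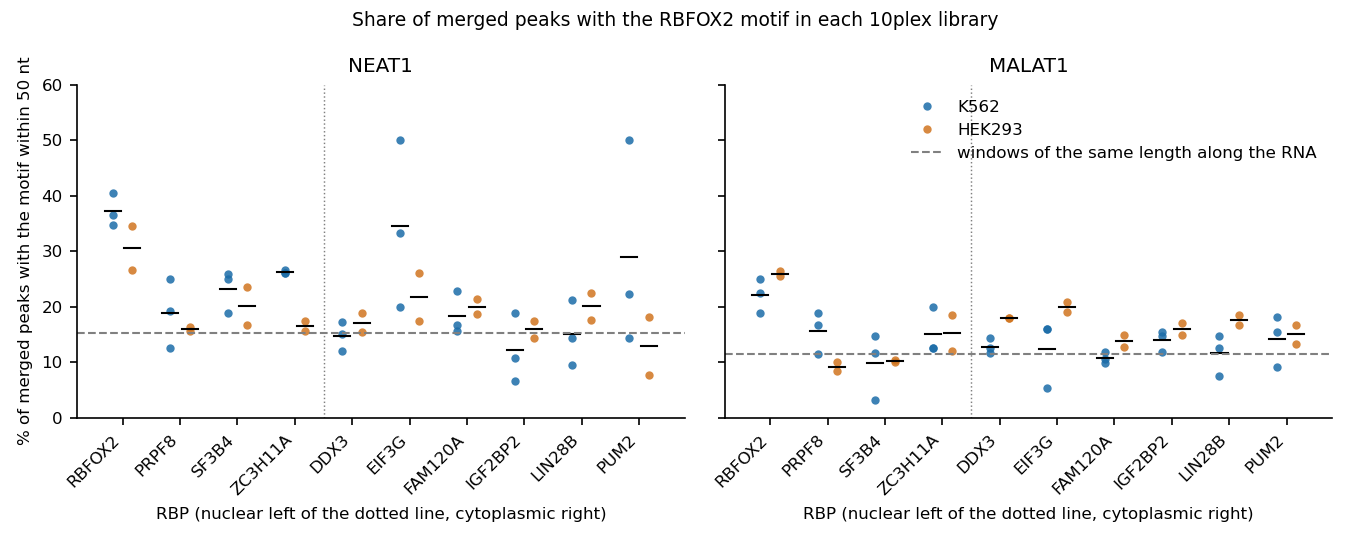
Share of the merged peaks on NEAT1 (left) and MALAT1 (right) with GCATG in the peak or within 50 nt of it, 1 point a 10plex library, with a line at the mean of the pools. RBFOX2 averages 37.2% and 30.5% on NEAT1, above the dashed line for windows of the same length (15.2%), and single EIF3G and PUM2 libraries in K562 reach 50%.

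Singleplex RBFOX2 in HEK293 had fewer RPM on both RNAs than its 10plex counterpart. It had 1887 and 1951 RPM on NEAT1 (1919 ± 46, SD, n = 2) against 4937 and 4044, and 1471 and 1440 RPM on MALAT1 (1456 ± 22) against 3116 and 3012. The groups do not overlap in RPM, and no test was made between the protocols. The ranks among genes were close, at 5 and 5 against 4 and 5 for NEAT1 and 6 and 10 against 7 and 7 for MALAT1. The share of reads on exons was 31.8% and 39.2% in singleplex and 46.8% and 50.5% in 10plex. Over the external background, 94 of 99 NEAT1 and 87 of 87 MALAT1 peaks passed, where 10% of all its peaks did. The best NEAT1 peak was the 5′ site in both replicates, at nt 221 to 268 (788 reads, 32.2-fold) and nt 220 to 270 (441 reads, 32.4-fold). The best MALAT1 peak overlapped or adjoined the RBFOX2 site, at nt 6373 to 6406 (741 reads, 212-fold) and nt 6434 to 6550 (470 reads, 161-fold). On NEAT1 41.3% ± 1.2 and on MALAT1 20.9% ± 1.33 of the singleplex peaks held GCATG.

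SLBP, which binds the stem-loop of histone mRNAs, also had peaks on both RNAs in K562. It had 3432 and 1510 RPM on NEAT1 (2471 ± 1359) and 13410 and 9231 RPM on MALAT1 (11320 ± 2956, SD, n = 2), inside the ranges of the 10 RBPs in K562. Over the external background 28 of 33 NEAT1 peaks and 39 of 39 MALAT1 peaks passed, against 55.3% of all SLBP peaks. Its best MALAT1 peaks, at nt 1997 to 2060 (104 reads) and nt 2950 to 3050 (15 reads), lay in different places in the replicates, as did its best NEAT1 peaks (27 and 6 reads). No CC exists for singleplex libraries.

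The genes whose K562 levels were most like those of each RNA over the 10 RBPs were named by Pearson's r, as a description over 10 points that share libraries. For NEAT1 these were MIR3609 (0.87 in K562, 0.34 in HEK293), MMP25-AS1 (0.86 and 0.84), SCARNA10 (0.85 and 0.40), SCARNA6 (0.84 and 0.36) and SNHG10 (0.83 and 0.57). For MALAT1 they were SNORA31 (0.94 and 0.07), JUNB (0.87 and 0.81), SNORA79B (0.87 and 0.81), SCARNA4 (0.87 and 0.90) and SNORA79 (0.87 and 0.78). The 2 RNAs themselves had an r of 0.59 in K562 and 0.53 in HEK293.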

How the data were processed

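ABC libraries were processed by the study with cutadapt 2.8 and STAR 2.7.6 against GRCh38 (submitters' processing notes), and peaks were called per library with CLIPper. The files the authors deposited give, per CLIPper peak, a p-value and a score, and, per merged peak, a −log10 P and a log2 fold over the CC or the external background, with other columns holding coordinates and the CLIPper name. Reads in each merged peak and in its background were recovered from the deposited log2 fold and P, or from the peak name where it holds them. The solving was tried on statistics simulated from K562 pool 3. Of the peaks with P below 0.001, 99.7% to 100% a library were put on the right side, enriched or depleted, and 100% of the enriched peaks were found. In the pools that needed solving, whole CC reads met the statistic less often. The share of peaks ran from 59.6% (RBFOX2 in HEK293 pool 2) to 99.4% (PUM2 in K562 pool 1). It was 69.1% for RBFOX2 in HEK293 pool 1, so RBFOX2 folds near 8 in HEK293 are uncertain. The RBP of a library came from its file name, checked against the antibodies in the labels.

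Peaks were assigned to exons of GENCODE 44 (the authors used 35) on the strand, with at least 1 nt of overlap. For each run of touching peaks the highest count entered once, and levels are RPM, reads scaled to the sum of reads in peaks of the library. limma 3.58.1 in R 4.3.3 (lmFit, eBayes with trend) was fitted to log2 values with a prior count of 0.5 over 50 libraries in 20 groups of RBP and cell line, with Benjamini-Hochberg adjustment over 5608 genes and a threshold of 0.05. In a run on simulated data of the nuclear against cytoplasmic contrast in K562, with 200 of 5608 genes changed by 2 (log2), 83% of these were called and 15 unchanged genes. Exact permutation tests used scipy 1.17.1 (Python 3.11.15, numpy 2.4.6, pandas 2.3.3). Over all genes, deviations from group means correlated weakly within a pool (mean r 0.0629 in K562 and 0.0552 in HEK293), and the fit with the pool as a block was an alternative. A pool's 10 libraries come from the same lysate.

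The members and lists were chosen with earlier results of these data known. Named sites were, per RBP and RNA, those enriched in most pools and then of highest mean fold, and in singleplex libraries the peak of lowest P. Other enriched sites were named after their values were seen. Alternatives were the counting of touching peaks, centring, the denominator, the prior count, the gene filter, the limits, the motif window, the pool as a block, the RBP classes and each pool left out. Recovered counts carry counting error, and reads were collapsed by molecular identifiers in the authors' processing.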

Additional observations from a re-analysis of the deposited data

How the results depend on the processing

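Of 480 alternatives to 51 results, 191 of 240 for the main comparisons and 215 of 240 for single RBPs kept the direction, the side of the threshold and, for counts, the size. Nuclear minus cytoplasmic on NEAT1 in HEK293 turned to 0.17 with touching peaks summed and ranged from -0.20 to 0.15 over left-out pools (MALAT1, 0.22 to 0.31). On MALAT1 it passed with touching peaks summed (0.48 in K562, 0.57 in HEK293) and, in HEK293, without K562 pool 3 (0.27, adjusted p = 0.0298). The nuclear excess in the NEAT1 5′ segment in K562 (1.04 points) turned to -0.87 by share of peaks, to -1.80 without LIN28B and ZC3H11A and ranged from -1.02 to 4.98 over left-out pools. PRPF8 on MALAT1 in K562 turned from -0.47 to 0.033 with touching peaks summed. RBPs called against the other 9 were 4 for NEAT1 in K562 after centring, 0 for NEAT1 in HEK293 without either pool, 5 for MALAT1 in K562 without chrM and snoRNA reads and 1 to 6 over left-out pools, and 1 for MALAT1 in HEK293 with touching peaks summed and 0 to 5 over left-out pools. The causes were not tested. Where a pool is left out of HEK293, the lone library of an RBP is assumed to vary like the other groups.

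Peaks past stricter CC limits (P below 1e-05, fold above 16) were 0 a pool on NEAT1 in both lines and on MALAT1 1 in K562 and 0 in HEK293. At any fold above 1 they were 55.3 and 49 on NEAT1 and 100.3 and 60.5 on MALAT1. Over left-out pools the NEAT1 counts were 6 to 11 and 1 to 5 and the MALAT1 counts 1.5 to 3 and 0 to 2. SLBP on NEAT1 had 6.5 under the stricter limits and 6 to 22 by replicate. GCATG shares within the peak alone were 11.8%, 8.22%, 7.32% and 9.71% (adjusted p = 0.128, 0.213, 0.125 and 0.125, exact permutation). In peaks enriched over the CC they were 94.4% and 100% on NEAT1 (exact permutation, adjusted p = 0.2 and 0.5). Only libraries with such a peak could be permuted, which left too few arrangements for a call, so this decides nothing. The test was not run for MALAT1 or PUM2, where a pool had no such peak. Over left-out pools NEAT1 ran from 35.6% to 38.5% and 26.6% to 34.5% and MALAT1 in HEK293 from 25.5% to 26.3%, where 1 pool cannot pass. With the pool as a random block the nuclear difference on MALAT1 in K562 was 0.21 (adjusted p = 0.0868), SF3B4 joined the calls for MALAT1 in HEK293 (4 in all), and no other call changed. Shallow libraries (PUM2, EIF3G) limit the peaks found.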
